A study of Mus musculus with 3 samples.

Results

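The receptors and signalling proteins of the interleukin-6 (IL-6) family were followed in whole-kidney RNA through 8 genes, *Il6ra*, *Il6st*, *Lepr*, *Lifr*, *Osmr*, *Jak1*, *Stat3* and *Socs3*, out of 18193 genes named on the array. Every probe set was taken for which the platform's annotation gives a single gene symbol from among these 8, which gave 26 of the 45037 probe sets that are no controls. A probe set is the group of short oligonucleotides on the array that together report on 1 transcript. The samples came from male C57BL/6J mice aged 16 weeks. In the cardio-renal syndrome group (2 arrays), the abdominal aorta had been constricted just below the branching of the renal arteries and 1 kidney had been removed 2 weeks later. In the uninephrectomy alone group (1 array), 1 kidney had been removed and the aorta was not banded, and the series describes a sham operation as the alternative to banding. In both groups the remaining kidney was taken 6 weeks after the removal of the other. All mice had thus lost a kidney, and the groups differ in the banding. Nothing in the labels tells if a sample came from a single mouse or from several, so what the spread between arrays measures is not known.

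The cytokines of the IL-6 family signal through receptors that share the subunit gp130, the product of *Il6st*. IL-6 itself first binds the alpha receptor encoded by *Il6ra*, whereas leukaemia inhibitory factor and oncostatin M use gp130 together with the subunits encoded by *Lifr* and *Osmr*. The leptin receptor *Lepr* belongs to the same class of receptors but pairs with itself. Kinases such as JAK1 phosphorylate the receptor tails, STAT3 binds there, is phosphorylated and enters the nucleus, and SOCS3, whose gene is a STAT3 target, shuts the pathway down. In the kidney the pathway is known for its part in responses of tubule cells to injury and in inflammation. Because STAT3 is switched on by phosphorylation, messenger RNA levels do not show how active it is.

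The values are MAS5 signals on a linear scale. Every array has a mean signal of 500 after 2% of probe sets are trimmed at each end. The signals of the kidney markers were high on all 3 arrays: *Umod*, which encodes the urinary protein uromodulin, had signals of 26237 and 28669 on the cardio-renal arrays and 28134 on the uninephrectomy array. Cardio-renal array 1 stood apart in genes with a sex bias in the kidney. *Slco1a1*, a male-biased organic anion transporter, had signals of 22.5 on cardio-renal array 1, 6064 on cardio-renal array 2 and 6161 on the uninephrectomy array. Cardio-renal array 2 stood apart in markers of stromal cells, whose summed signal over *Pdgfra*, *Pdgfrb*, *Col1a1* and *Dcn* was 4711 on cardio-renal array 1, 3124 on cardio-renal array 2 and 4841 on the uninephrectomy array. Heart muscle transcripts were higher on both cardio-renal arrays, with a summed signal of 6 markers of 1747 and 1193, against 157 on the uninephrectomy array. Results that differ between the cardio-renal arrays are therefore given for each array.

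Of the 26 probe sets, 18 passed a filter on dim signals, which kept a probe set when its mean over the 3 arrays reached the median of all probe sets. The other 8 are called dim and were not tested. Differences are cardio-renal minus uninephrectomy alone, on a log2 scale after adding 28.8 to each signal, which understates the change of dim probe sets. Over all probe sets kept, the SD of the difference between the cardio-renal arrays was 0.321 on this scale. It was 0.325 between array 1 and the uninephrectomy array and 0.260 between array 2 and the uninephrectomy array. Cardio-renal array 2 thus lay nearer to the uninephrectomy array than to cardio-renal array 1. None of the 18 passed limma's test across all 22519 probe sets kept (adjusted p = 0.9998 for each), and 0 of all 22519 did, a background of 0% in either direction. The smallest adjusted p of any probe set was 0.114 with limma. Without adjustment, 1 of the 18 had a limma p under 0.05, as did 627 of the 22519, where 1126 would be expected by chance. With 2 arrays against 1, an exact permutation test cannot go below p = 0.333. What follows is thus a description of 3 arrays, in which "lower in both" means that both cardio-renal signals lay below the single uninephrectomy signal. "Higher in both" means that both lay above it. Neither count asks for a least size of the difference.

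**Figure D1:**
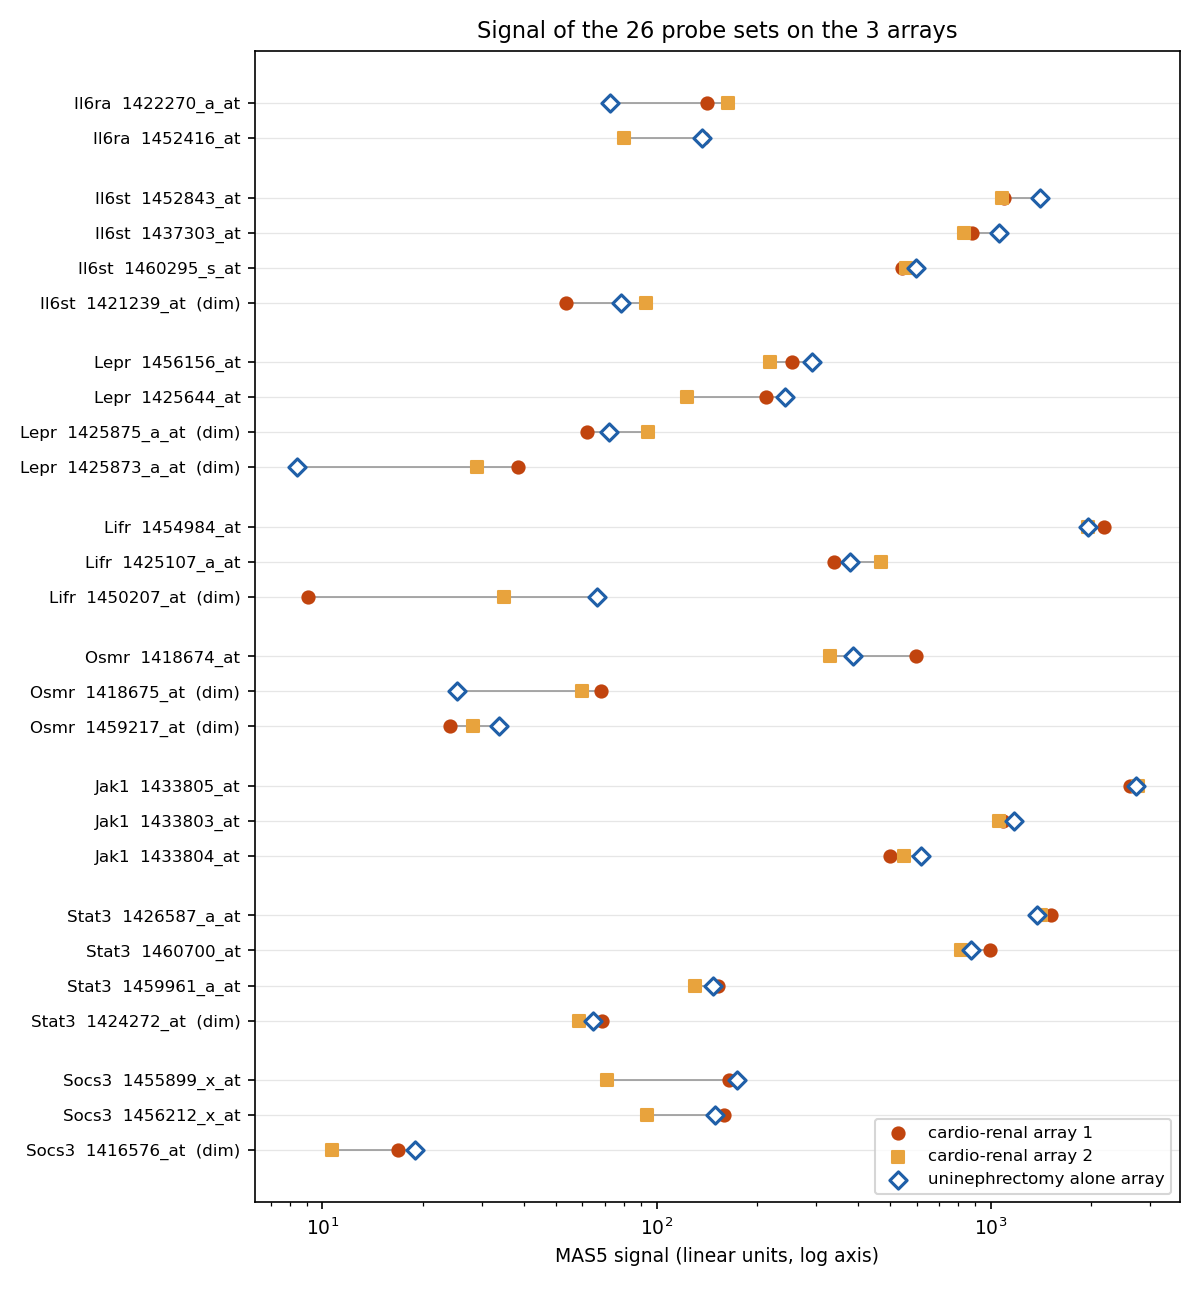
MAS5 signal (log axis) of each of the 26 probe sets on cardio-renal array 1 (circles), cardio-renal array 2 (squares) and the uninephrectomy alone array (open diamonds), 1 value per array, with probe sets marked dim where they did not pass the filter. Both cardio-renal symbols lie left of the diamond for 3 probe sets of *Il6st* and right of it for *Il6ra* 1422270_a_at.

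The 18 kept probe sets held no common direction. In both cardio-renal arrays, 8 were lower, where 29.7% of all kept probe sets were, and 3 were higher, where 31.8% were. The remaining 7 had opposite signs in the 2 arrays, as did 38.5% of all. The median difference of the 18 was -0.06 in cardio-renal array 1 and -0.16 in array 2, beside 0.02 and -0.01 over all kept probe sets. Without array 2, 10 of the 18 were lower and 8 higher on array 1, and without array 1, 13 were lower and 5 higher on array 2, where 46.4% and 51.4% of all kept probe sets were lower on arrays 1 and 2. At least 1.5-fold apart in the same direction in both arrays were 1 probe set on the higher side (background 0.639%) and 0 on the lower side (0.364%). The mean difference was larger than the gap between the cardio-renal arrays in 7 of the 18, where 38.9% of all kept probe sets met this. Of the 8 genes, 7 had at least 2 kept probe sets, and in 2 of these 7, *Il6st* and *Lepr*, all kept probe sets were lower in both. Among all 5032 genes with at least 2 kept probe sets, 9.88% had all of them lower in both arrays and 9.7% all of them higher.

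**Figure D2:**
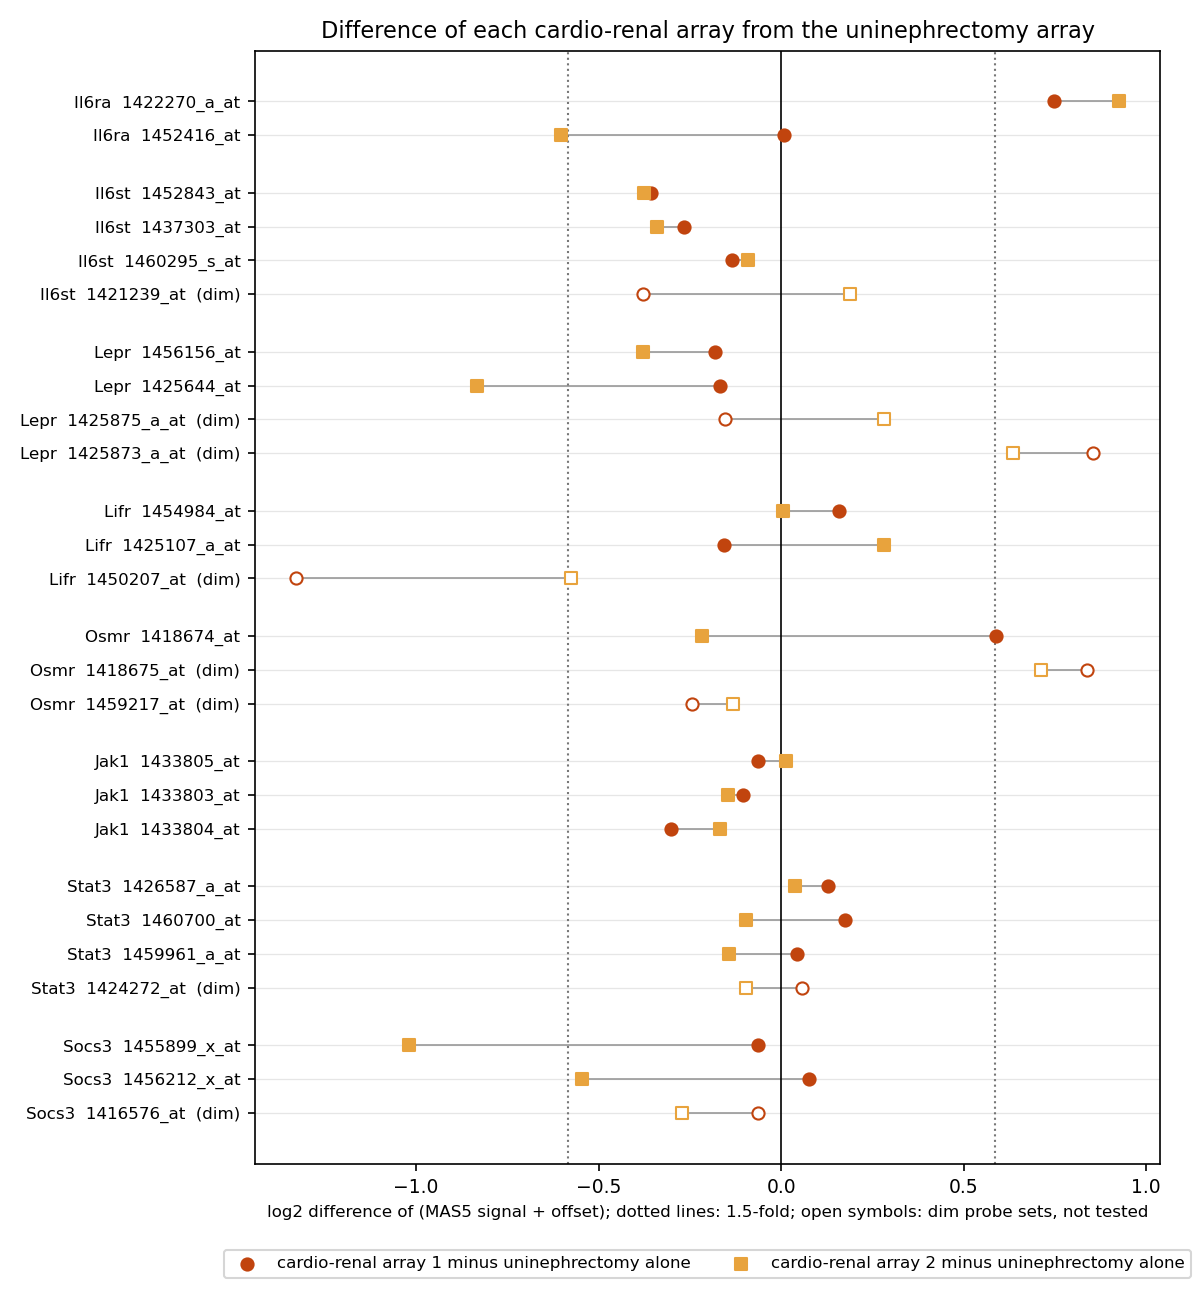
Log2 difference of cardio-renal array 1 (circles) and array 2 (squares) from the uninephrectomy alone array for each probe set, with open symbols for dim probe sets that were not tested and dotted lines at 1.5-fold. The filled circle and square of each *Il6st* and *Jak1* probe set lie close together, whereas *Socs3*, *Osmr* and *Lepr* 1425644_at have cardio-renal arrays far from each other.

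*Il6st*, which encodes the shared signalling subunit gp130, was lower in both cardio-renal arrays in each kept probe set, by less than 1.5-fold. Its brightest probe set, 1452843_at, had signals of 1093 and 1078 on the cardio-renal arrays and 1406 on the uninephrectomy array. The cardio-renal signals were nearly equal and both lay below the uninephrectomy signal, a log2 difference of -0.36 ± 0.01 (SD, n = 2; limma SE 0.17, unadjusted p = 0.0616, adjusted p = 0.9998). Here and below, the SD is that of the 2 cardio-renal differences, which share the 1 uninephrectomy signal. It holds nothing of the variation of the uninephrectomy array and so understates the uncertainty of the difference. Probe set 1437303_at had signals of 878 and 834 on the cardio-renal arrays and 1062 on the uninephrectomy array, a difference of -0.30 ± 0.05 (SD, n = 2). Probe set 1460295_s_at, whose suffix marks oligonucleotides that more than 1 transcript can share, had 542 and 559.6 on the cardio-renal arrays and 598 on the uninephrectomy array, a difference of -0.11 ± 0.03 (SD, n = 2). All 3 were thus lower in both cardio-renal arrays, and among the 1189 genes with exactly 3 kept probe sets 6.9% had all of them lower. The sizes were unequal, at 0.25 between the smallest and the largest difference, beside a median of 0.24 over those 1189 genes. The dim probe set 1421239_at had 53.6 and 93.2 on the cardio-renal arrays and 78.3 on the uninephrectomy array, and the cardio-renal signals lay on opposite sides of it. In whole-kidney RNA, fewer cells that express a gene and less of its RNA per cell cannot be told apart.

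*Il6ra*, which encodes the receptor that binds IL-6 itself, had the largest difference among the kept probe sets, and its probe sets did not share it. Probe set 1422270_a_at had signals of 141 and 164 on the cardio-renal arrays and 72.5 on the uninephrectomy array. Both cardio-renal signals were higher and lay closer to each other than to the uninephrectomy signal, a log2 difference of 0.84 ± 0.13 (SD, n = 2; limma SE 0.26, unadjusted p = 0.0129, adjusted p = 0.9998). With an offset of 100 in place of 28.8 the difference was 0.55 and no longer 1.5-fold in both arrays. The suffix of this probe set marks oligonucleotides shared by transcripts of the same gene. Probe set 1452416_at had 137 and 79.9 on the cardio-renal arrays and 136 on the uninephrectomy array. Here cardio-renal array 1 equalled the uninephrectomy array within 0.01 on the log2 scale and only array 2 lay lower, a mean difference of -0.30 ± 0.43 (SD, n = 2). The probe sets were 1.13 apart in their mean difference, beside a median of 0.15 over the 3020 genes with exactly 2 kept probe sets. Both lie near the filter, with signals around the median of their arrays, which was 106 and 102 on the cardio-renal arrays and 100.1 on the uninephrectomy array. *Il6ra* is known from hepatocytes and leukocytes. The summed signal of the 8 leukocyte markers was 4697 and 5403 on the cardio-renal arrays and 5663 on the uninephrectomy array. *Csf1r* was the brightest of them, with 2845 and 3683, against 3708. Of the 5 kept, 4 were lower in both, while *Cd68* was higher in both, as was the dim *Itgam*. The summed signal of the 4 hepatocyte markers was 2238 and 1915, against 1531, with 3 of 4 higher in both. With 1 probe set per gene, 29.8% of all 11146 kept genes were lower in both and 30.6% higher. The dimmest marker of both lists was *Cd79a* of B cells, with 5.54 and 4.97 on the cardio-renal arrays and 7.60 on the uninephrectomy array. These signals lay below the 25th percentile of their arrays, which was 28.8 and 29.9 on the cardio-renal arrays and 27.7 on the uninephrectomy array. The part of leukocyte and hepatocyte RNA in the *Il6ra* signals was not tested.

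The receptor subunits for leukaemia inhibitory factor and oncostatin M are encoded by *Lifr* and *Osmr*, which are adjacent on mouse chromosome 15, with 0 protein-coding genes between them in the RefSeq annotation. The brightest *Lifr* probe set, 1454984_at, had signals of 2180.2 and 1956 on the cardio-renal arrays and 1950.0 on the uninephrectomy array. Array 2 was nearly level with the uninephrectomy array, 0.005 above it on the log2 scale, and array 1 was slightly above it. The mean log2 difference was 0.08 ± 0.11 (SD, n = 2). Probe set 1425107_a_at had 339 and 469 on the cardio-renal arrays and 380.4 on the uninephrectomy array, so that the uninephrectomy signal lay between the cardio-renal signals. Its mean difference, 0.06 ± 0.31 (SD, n = 2), was smaller than the spread of the cardio-renal arrays. The dim *Lifr* probe set 1450207_at had 9.06 and 35.0 on the cardio-renal arrays and 66.3 on the uninephrectomy array, lower in both, in contrast to the kept probe sets of the gene.

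*Osmr* had 1 kept probe set, 1418674_at, and there the cardio-renal arrays differed. Its signals were 599 on cardio-renal array 1, 330.3 on cardio-renal array 2 and 389 on the uninephrectomy array. The log2 difference was 0.59 in array 1 and -0.22 in array 2, a mean of 0.19 ± 0.57 (SD, n = 2), and the gap between the cardio-renal arrays, 0.81, was larger than either difference. Without array 1, whose sex-biased genes stood apart, the difference was -0.22, and without array 2 it was 0.59. The dim probe set 1418675_at had 68.0 and 59.9 on the cardio-renal arrays and 25.4 on the uninephrectomy array, higher in both. The other dim probe set, 1459217_at, had 24.0 and 28.3 on the cardio-renal arrays and 33.8 on the uninephrectomy array, lower in both. The 3 probe sets of *Osmr* therefore gave 3 different patterns.

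*Lepr*, the leptin receptor gene, gives rise to a long signalling isoform and to short isoforms, and its 4 probe sets need not report the same transcripts. Probe set 1456156_at had signals of 254 and 218 on the cardio-renal arrays and 292 on the uninephrectomy array, lower in both with a log2 difference of -0.28 ± 0.14 (SD, n = 2). Probe set 1425644_at had 212 and 123 on the cardio-renal arrays and 242 on the uninephrectomy array. It too was lower in both, but most of its mean difference, -0.50 ± 0.47 (SD, n = 2), came from array 2 at -0.83, with array 1 at -0.17. Both kept probe sets were thus lower in both arrays, which held for 12.9% of the 3020 genes with exactly 2 kept probe sets. Of the dim probe sets, 1425875_a_at had 62.1 and 94.1 on the cardio-renal arrays and 72.3 on the uninephrectomy array, on opposite sides of it. The other, 1425873_a_at, had 38.4 and 28.9 on the cardio-renal arrays and 8.39 on the uninephrectomy array, higher in both. With all 4 probe sets averaged, *Lepr* had a difference of 0.01 ± 0.11 (SD, n = 2). In array 2, where 1425644_at was lowest, the stromal markers were also low: *Pdgfra*, a receptor of fibroblasts, had signals of 906 on cardio-renal array 1, 499 on cardio-renal array 2 and 880.2 on the uninephrectomy array. All 4 stromal markers were lower in array 2 and 2 of 4 in array 1. Of all 11146 kept genes, taken with 1 probe set each, 50.7% were lower in array 2 and 48.4% in array 1. The part of stromal RNA in the *Lepr* signals was not tested.

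*Jak1*, the kinase bound to gp130, lies on chromosome 4 near *Lepr*, with 3 protein-coding genes between them in the RefSeq annotation. Its brightest probe set, 1433805_at, had signals of 2610.1 and 2755 on the cardio-renal arrays and 2729.8 on the uninephrectomy array, a log2 difference of -0.03 ± 0.05 (SD, n = 2). The uninephrectomy signal lay between the cardio-renal signals. Probe set 1433803_at had 1088 and 1056 on the cardio-renal arrays and 1171 on the uninephrectomy array, and 1433804_at had 498 and 549.6, against 621. Both were lower in both cardio-renal arrays, with differences of -0.12 ± 0.03 and -0.23 ± 0.09 (SD, n = 2 each), and the brightest probe set did not share this. The annotation names the same source sequence for all 3.

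*Stat3*, the transcription factor at the end of the pathway, had differences near 0 in every kept probe set. Probe set 1426587_a_at had signals of 1512 and 1417 on the cardio-renal arrays and 1381 on the uninephrectomy array, a log2 difference of 0.08 ± 0.06 (SD, n = 2). Probe set 1460700_at had 992 and 817 on the cardio-renal arrays and 875 on the uninephrectomy array, and 1459961_a_at had 153 and 130.5, against 147. In both of these, array 1 was above and array 2 below the uninephrectomy array, with mean differences of 0.04 ± 0.19 and -0.05 ± 0.13 (SD, n = 2 each). The dim probe set 1424272_at had 68.5 and 58.6 on the cardio-renal arrays and 64.7 on the uninephrectomy array, with the same order. Across the kept probe sets of *Stat3* the mean differences spanned 0.13.

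*Socs3*, the feedback inhibitor whose gene STAT3 switches on, was also a gene in which the cardio-renal arrays lay far apart. Probe set 1455899_x_at had signals of 165 on cardio-renal array 1, 71.3 on cardio-renal array 2 and 174 on the uninephrectomy array, differences of -0.06 and -1.02. Probe set 1456212_x_at had 160 on cardio-renal array 1, 93.6 on cardio-renal array 2 and 149.7 on the uninephrectomy array, differences of 0.08 and -0.54. Array 1 was level with the uninephrectomy array in both probe sets and array 2 was lower in both. Their mean differences, -0.54 ± 0.67 and -0.23 ± 0.44 (SD, n = 2 each), did not exceed that spread. The suffix of both marks oligonucleotides that may also bind unrelated sequences. The only *Socs3* probe set without that suffix, 1416576_at, was dim, with 16.8 and 10.7 on the cardio-renal arrays and 18.9 on the uninephrectomy array, the lowest again in array 2. Array 2 is the array with low stromal markers, whose part in the *Socs3* signals was not tested.

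Because *Socs3* is a direct STAT3 target in mouse, its promoter is shown beside that of *Il6st*, whose kept probe sets were lower together. The windows run from 250 bases before to 50 bases after the gene's start in RefSeq (GRCm38.p6) and are written 5′ to 3′ on the gene's strand. Capitals mark the STAT-type motif TTCNNNGAA, which reads the same on both strands. The *Socs3* window is chr11:117969317-117969616 on the minus strand and the *Il6st* window is chr13:112463820-112464119 on the plus strand.
Socs3: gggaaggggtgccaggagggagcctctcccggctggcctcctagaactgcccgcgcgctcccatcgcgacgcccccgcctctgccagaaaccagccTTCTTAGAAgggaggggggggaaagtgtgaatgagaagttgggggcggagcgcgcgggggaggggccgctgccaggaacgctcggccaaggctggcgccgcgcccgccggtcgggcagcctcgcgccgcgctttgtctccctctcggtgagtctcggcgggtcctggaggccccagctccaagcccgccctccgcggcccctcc
Il6st: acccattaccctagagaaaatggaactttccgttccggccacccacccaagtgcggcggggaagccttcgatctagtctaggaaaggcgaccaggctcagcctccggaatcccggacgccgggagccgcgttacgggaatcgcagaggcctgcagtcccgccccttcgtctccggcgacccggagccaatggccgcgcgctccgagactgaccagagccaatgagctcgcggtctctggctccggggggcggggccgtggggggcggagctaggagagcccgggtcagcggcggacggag
All 8 genes matched the promoter table by symbol, with 10 windows in all. The motif was found in 1 of the 10, as TTCTTAGAA beginning 154 bases before the start of *Socs3*, and in 8.3% of the 32851 windows of all genes. A match describes letters and not a bound site, and windows without one say only that these letters are not within them.

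**Figure D3:**
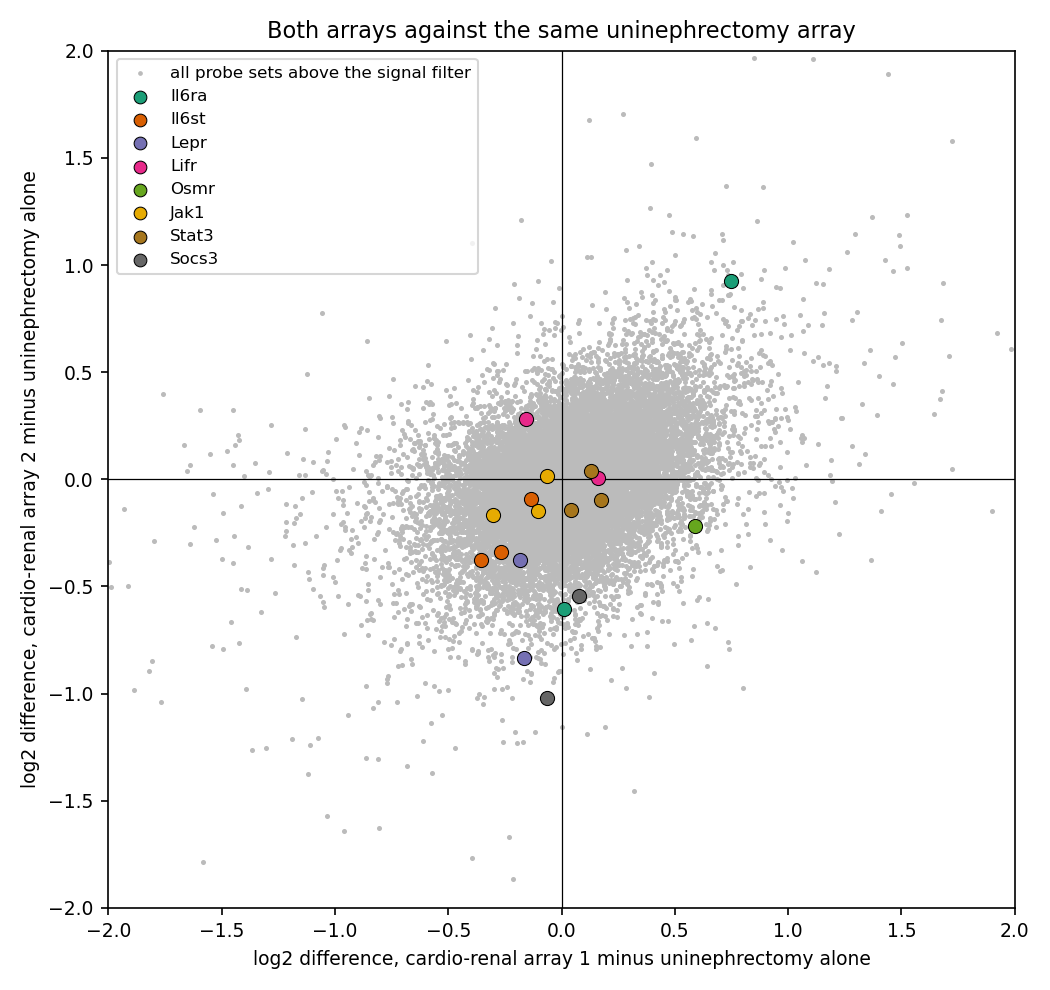
Log2 difference of cardio-renal array 2 against that of cardio-renal array 1, both taken from the same uninephrectomy alone array, for all kept probe sets (grey, 48 of 22519 outside the axes) and the 18 kept probe sets of the 8 genes (coloured). *Il6ra* 1422270_a_at is the only coloured point in the upper right beyond 1.5-fold on both axes, and *Socs3*, *Lepr* 1425644_at and *Il6ra* 1452416_at lie below the cloud's centre along the axis of array 2 alone.

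Other genes of the pathway were described with 1 probe set per gene, the one with the highest mean. Of 84 listed genes, 77 had a probe set and 51 passed the filter, and 0 of these passed limma's adjusted test (smallest adjusted p = 0.9998). Of the 51, 14 were higher and 19 lower in both cardio-renal arrays, where 30.6% and 29.8% of all 11146 such genes were. At least 1.5-fold apart in both arrays were 0 on the higher side (background 0.511%) and 1 on the lower side (0.35%), the immediate early gene *Fos*, with signals of 260.1 and 171 on the cardio-renal arrays and 564 on the uninephrectomy array.

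Most ligands of the family were dim in whole kidney. Of 11 ligands, 8 had a probe set and 2 were kept. *Il6* was dim, with signals of 22.6 and 14.4 on the cardio-renal arrays and 25.2 on the uninephrectomy array. *Ctf1*, which encodes cardiotrophin 1, a ligand of gp130 and the LIF receptor, was kept with 471 and 418 on the cardio-renal arrays and 493 on the uninephrectomy array. It was lower in both, at -0.14 ± 0.12 (SD, n = 2) on the log2 scale. Of 3 other receptors of the family, *Cntfr*, the binding subunit for ciliary neurotrophic factor, was the 1 kept. It had 146 and 141 on the cardio-renal arrays and 100.002 on the uninephrectomy array, higher in both at 0.42 ± 0.03 (SD, n = 2).

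Among other kinases and transcription factors of the pathway, 3 of 6 kept genes were higher and 1 lower in both arrays. Over all 11146 genes, 30.6% were higher and 29.8% lower. *Stat5a*, which acts downstream of growth hormone and other cytokines, had signals of 209.9 and 259.5 on the cardio-renal arrays and 177 on the uninephrectomy array, a log2 difference of 0.35 ± 0.19 (SD, n = 2). *Stat5b* stood at 0.12 ± 0.07 (SD, n = 2). The kinase gene *Tyk2* had 286 and 339 on the cardio-renal arrays and 284 on the uninephrectomy array. It is counted as higher in both, although array 1 stood above by only 0.005 on the log2 scale. *Stat2*, a mediator of interferon signals, had 79.8 and 110.0 on the cardio-renal arrays and 135 on the uninephrectomy array, at -0.42 ± 0.25 (SD, n = 2).

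Genes of negative regulators (other SOCS proteins, PIAS proteins and phosphatases) held 10 of 15 kept genes lower and 0 higher in both arrays, where 29.8% of all 11146 genes were lower and 30.6% higher. The differences of a gene in both arrays share the 1 uninephrectomy signal, so they are not independent of each other. Their medians were small, -0.07 in array 1 and -0.08 in array 2, beside 0.01 and -0.003 over all 11146 genes. Counted over every kept probe set of these genes in place of 1 per gene, 16 of 32 were lower and 4 higher, where 29.7% and 31.8% of all kept probe sets were. *Socs2*, a feedback inhibitor of growth hormone signalling, was furthest on the lower side, with signals of 480.3 and 371 on the cardio-renal arrays and 600.1 on the uninephrectomy array, a log2 difference of -0.48 ± 0.25 (SD, n = 2), while its other kept probe set was not lower in both. *Pias4* stood at -0.27 ± 0.17 and *Pias1* at -0.18 ± 0.05 (SD, n = 2 each), the last with 2 of its 4 kept probe sets higher in both arrays.

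Known STAT3 targets were mixed, with 8 of 20 kept genes higher and 4 lower in both arrays, where 30.6% and 29.8% of all 11146 genes were. Their medians were 0.03 in array 1 and 0.17 in array 2, beside 0.01 and -0.003 over all genes. The cell cycle inhibitor gene *Cdkn1a* had signals of 405 and 594 on the cardio-renal arrays and 292 on the uninephrectomy array, a log2 difference of 0.69 ± 0.37 (SD, n = 2). The kinase gene *Pim1* had 190.0 and 230.3 on the cardio-renal arrays and 129.8 on the uninephrectomy array, at 0.59 ± 0.17, and the transcription factor gene *Junb* stood at 0.38 ± 0.07 (SD, n = 2 each). On the lower side, *Fos* stood at -1.30 ± 0.38, the RNA-binding protein gene *Zfp36* at -0.42 ± 0.06 and the hypoxia-inducible factor gene *Hif1a* at -0.20 ± 0.14 (SD, n = 2 each). The other of the 2 kept *Hif1a* probe sets was higher in both arrays. *Fos*, *Junb* and *Zfp36* are also immediate early genes, which many signals besides STAT3 induce.

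Acute phase genes, which IL-6 induces in liver through STAT3, were mostly dim, with 7 of 20 kept. Of the 7, 2 were higher and 3 lower in both arrays, where 30.6% and 29.8% of all 11146 genes were. *Cp*, which encodes the ferroxidase ceruloplasmin, had signals of 2539 and 1455 on the cardio-renal arrays and 990.0 on the uninephrectomy array, a log2 difference of 0.94 ± 0.56 (SD, n = 2), and 2 of its 7 kept probe sets were higher in both. The fibrinogen chain gene *Fgg* had 1025 and 666 on the cardio-renal arrays and 662 on the uninephrectomy array. It is counted as higher in both, although array 2 stood above by only 0.0099 on the log2 scale. *Fgb*, another fibrinogen chain, stood at -0.34 ± 0.15 and *Lcn2*, a lipocalin of injured tubules, at -0.34 ± 0.30 (SD, n = 2 each). *Apcs*, which encodes serum amyloid P, had 53.8 and 202 on the cardio-renal arrays and 298 on the uninephrectomy array, lower in both. Serum albumin *Alb*, a hepatocyte marker, had 775 and 338 on the cardio-renal arrays and 217 on the uninephrectomy array, highest in array 1 like *Cp*, *Fga* and *Fgg*. The other hepatocyte markers did not share this order. *Apoc3* (756 and 811, against 605) and *Serpina1c* (317 and 388, against 261) were highest in array 2. *Apoa2* (389 and 378, against 448) was lower in both. *Fga* had 959 on cardio-renal array 1, 551 on cardio-renal array 2 and 617 on the uninephrectomy array. The part of *Alb*-bearing RNA in these signals was not tested.

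**Figure D4:**
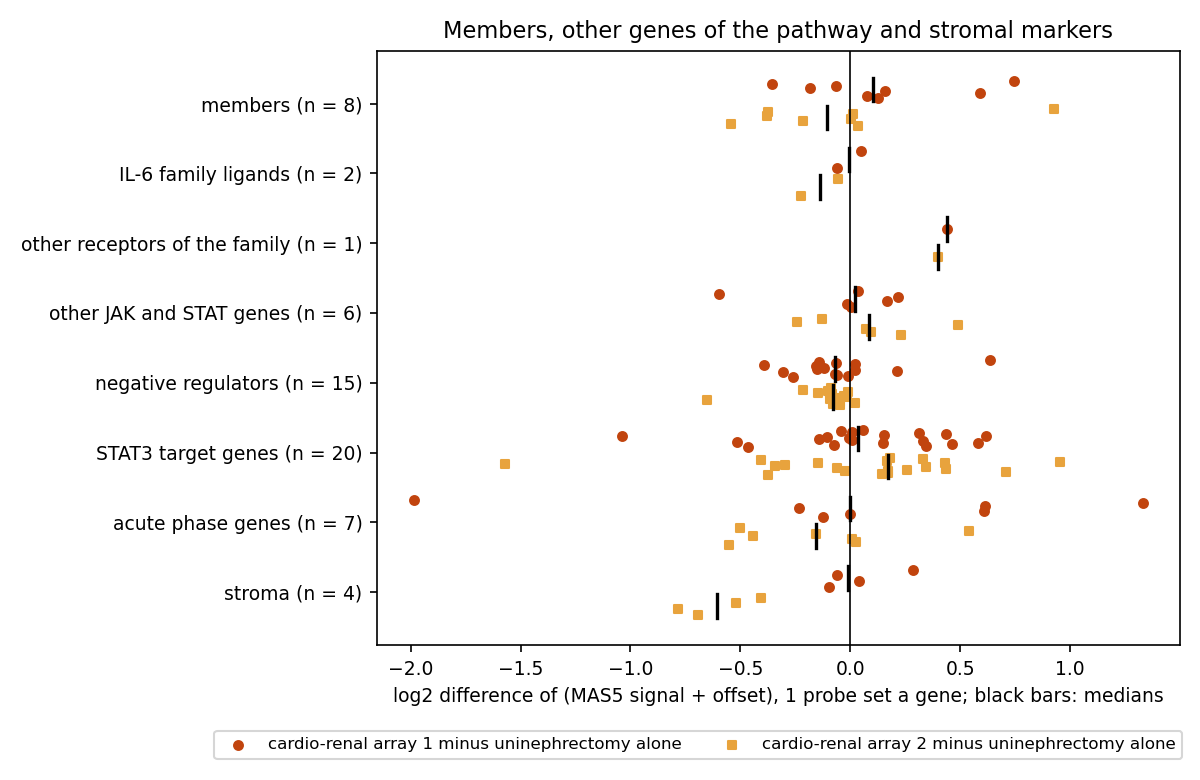
Log2 difference of cardio-renal array 1 (circles) and array 2 (squares) from the uninephrectomy alone array for each kept gene of the 8 members, of 6 other lists of the pathway and of the stromal markers, with 1 probe set per gene and black bars at the medians. The negative regulators cluster slightly below 0 in both arrays, the STAT3 targets spread to both sides, and the 4 stromal markers lie below 0 in array 2 alone, with a median of -0.61 there and -0.01 in array 1.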

How the data were processed

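Kidney RNA of 3 samples (250 ng each, biotin-labelled by a 3′ kit per the labels' protocols) was measured on 1 single-colour Affymetrix array each. The deposited values are intensities, linear MAS5 signals. The submitters' processing notes name MAS5 and no version. MAS5 takes off mismatch signal, so dim values are noisy. Each array's 2% trimmed mean was 500 and no further scaling was applied. The number of arrays limits the precision.

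Of 45101 probe sets, 64 controls were left out, and 34945 had 1 gene symbol in the platform annotation, updated by Entrez ID through RefSeq (GRCm38.p6). Log2(signal + 28.8), the offset being the median 25th percentile, was fitted for the 22519 probe sets whose mean reached the median, 7.01, with limma 3.58.1 in R 4.3.3 (trend, two-sided, Benjamini-Hochberg at 0.05). The residual degree of freedom, 1, comes from the cardio-renal pair, and the lone uninephrectomy array is assumed to vary likewise. The 1.5-fold rule is a count with no test. The script was tested on simulated data. Other offsets, scalings, filters, probe set rules and left-out arrays were tried.

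Beyond the 8 genes, up to 3 genes higher and 3 lower in both arrays were named per pathway list, ranked by the smaller difference, and every gene past 1.5-fold. *Il6*, *Fga* and the markers named were chosen after their values were seen. Members and lists were chosen with earlier results of these data known.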

Additional observations from a re-analysis of the deposited data

How the results depend on the processing

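No paired analysis was possible because the uninephrectomy alone group has 1 array. Of 197 comparisons of a single probe set or gene with an alternative, 178 kept their direction or, in dim probe sets, stayed within 1 SD of the cardio-renal arrays. Part of the 178 could not change, so this count is no measure of stability. Leaving out shared-sequence probe sets does not alter the difference of any other probe set. Taking 1 probe set a gene gave each gene its main value. A probe set on one side in both arrays cannot reverse when 1 array is left out. With limma adjusted p-values near 1 and 1 residual degree of freedom, an unchanged side of the threshold says nothing about stability. A further 8 moved, all in dim probe sets, and 11 reversed. In limma's test, which could be run under the alternatives with 3 arrays, 0 member probe sets were called under each, and of all probe sets 0 were called, except 3 when those whose suffix marks shared sequence were left out. Leaving out 1 cardio-renal array leaves 1 array against 1 and no test, and the cause of a reversal was not tested. The reversals with 1 cardio-renal array left out span -0.60 to 0.0092 for *Il6ra* 1452416_at, -0.16 to 0.28 for *Lifr* 1425107_a_at, -0.22 to 0.59 for *Osmr* 1418674_at, -0.064 to 0.013 for *Jak1* 1433805_at, -0.10 to 0.18 for *Stat3* 1460700_at, -0.14 to 0.044 for *Stat3* 1459961_a_at and -0.54 to 0.078 for *Socs3* 1456212_x_at. *Stat3* 1460700_at also reversed, to -0.014, with arrays scaled to the same median. *Il6ra* as 1 value reversed to -0.30 without shared-sequence probe sets, which removes 1422270_a_at, and as means of their probe sets *Lepr* reversed to 0.0071 and *Lifr* to -0.27.

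Counts over all probe sets at least 1.5-fold higher and lower in both arrays, 144 and 82, were 229 and 124 with an offset of 1, 66 and 47 with an offset of 100, 1044 and 687 without a filter, 25 and 30 in the upper quartile of signals, 57 and 39 with 1 probe set a gene and 35 and 32 with the mean of a gene's probe sets; the lower count was 54 without shared-sequence probe sets. With quantile normalization the counts were 125 higher and 90 lower. With arrays scaled to the same median they were 115 and 113, so that the excess on the higher side depends on the scaling. Leaving out 1 cardio-renal array gave 350 to 678 higher and 436 to 484 lower. Of the member probe sets, the 1 at least 1.5-fold higher became 0 with an offset of 100, in the upper quartile, without shared-sequence probe sets and with the mean of probe sets, 3 without a filter, and 1 to 2 without a cardio-renal array, where 0 to 3 were lower. The 3 higher in both became 2 with arrays scaled to the same median, 2 in the upper quartile and 5 without a filter. They were 1 without shared-sequence probe sets, 1 with the mean of probe sets and 5 to 8 without a cardio-renal array. The 8 lower in both became 10 with quantile normalization, 11 with arrays scaled to the same median and 11 without a filter. They were 6 without shared-sequence probe sets, 5 in the upper quartile, 2 with 1 probe set a gene and 3 with the mean of probe sets. Without a cardio-renal array they were 10 to 13.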
